A study of Mus musculus with 12 samples.

Results

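The response of wild-type mouse neutrophils to CpG-B DNA was described from 6 of the 12 libraries of the study, chosen by their labels: 3 of wild-type cells kept 6 h with 5 µM of the oligonucleotide ODN 1826 and 3 of wild-type cells kept without it. The control condition is called vehicle in one label and untreated in another, and is called unstimulated here. The cells were mature neutrophils taken from the bone marrow of C57BL/6 mice by magnetic positive selection for the surface protein Ly6G, and polyadenylated RNA was sequenced. The other 6 libraries are the same treatments of Rab27a knockout neutrophils, made to lack a small GTPase that docks granules at the plasma membrane. The labels name no allele. These libraries enter here only as part of the fit and in one comparison of responses. Libraries of a group carry the numbers 1 to 3. Nothing in the labels says beyond these numbers that they came from separate animals, so the p-values reflect only how far these samples spread, and that spread may be technical.

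CpG-B oligonucleotides are short single-stranded DNAs that resemble bacterial DNA. They are taken into endosomes, where they bind Toll-like receptor 9 (TLR9), which recruits the adaptor MyD88 and IRAK and TRAF proteins and so activates the transcription factor NF-kB and the MAP kinases. NF-kB waits in the cytosol bound to IkB proteins and, once freed, turns on genes of inflammation together with genes for its own inhibitors. In plasmacytoid dendritic cells the same receptor also drives interferon genes through IRF7, and secreted type I interferon acts back on cells through JAK and STAT proteins.

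The wild-type libraries held 11444586 to 13164438 estimated reads in genes, and 10802 genes had enough of them to be tested. Levels are given as CPM, which are read counts scaled to a common library size and composition, or as deposited TPM where genes are compared with each other, since TPM is corrected for transcript length. A gene is said to rise or fall at an adjusted p of at most 0.05 in the quasi-likelihood test of edgeR, with p-values adjusted by Benjamini and Hochberg's method over all 10802 genes. Standard errors (SE) are given beside log2 fold changes, and means are given ± SD of 3 libraries. In a principal component analysis of the 6 libraries the first component, with 49.7% of the variance, separated CpG from unstimulated, and the second, with 22.2%, set both libraries numbered 3 apart from the others. The neutrophil label held against its markers: S100a9 and S100a8, which encode the calcium-binding calprotectin subunits that fill neutrophil cytosol, were the most abundant transcripts at 199800 and 125600 TPM in unstimulated cells, and all 15 neutrophil markers were expressed. Their summed level was 100500 to 102000 CPM unstimulated and 92890 to 107300 CPM with CpG. Markers of other cells were present at lower summed levels over the 6 libraries. Those of immature neutrophils and promyelocytes summed to 11630 to 19040 CPM, of monocytes and macrophages to 5876 to 8648, of erythroid cells to 4168 to 5465, and of basophils and mast cells to 736 to 954. Dendritic cell, B lineage, eosinophil and T and NK cell markers summed to at most 69.4, 53.4, 54.8 and 11.6 CPM. Most of the monocyte and macrophage sum was Lyz2, at 4902 to 7152 CPM, the gene ranked 7 by TPM in unstimulated cells. The part of other cells in the results was not tested. In bulk RNA, fewer cells of a type and less RNA per cell cannot be told apart.

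CpG raised more genes than it lowered, and by larger steps. Of the 10802 genes 512 rose (4.74%) and 140 fell (1.3%), a total of 652 (6.04%). At least 2-fold changes were found for 292 that rose and 24 that fell, at least 4-fold changes for 116 and 4, and at least 16-fold changes for 15, all of which rose. The median log2 fold change was 1.12 among genes that rose and -0.65 among those that fell, against -0.01 over all genes tested. In 511 of the 512 and in all 140 the 3 CpG libraries lay wholly outside the range of the 3 unstimulated ones, which was the case for 25.7% of all genes tested. With 3 libraries a group a call nearly implies such a separation, so here and for single genes below it describes the called genes and adds no support to the calls. Transcripts of the genes that rose made up 2.44 to 2.49% of all TPM in unstimulated cells and 4.58 to 5.13% with CpG, and those of the genes that fell went from 0.668 to 0.753% down to 0.43 to 0.498%. With library number as a block, which uses only the difference between same-numbered libraries, 1051 genes rose (9.73%) and 773 fell (7.16%), with all 652 among them. Counts for gene lists below stand against these shares, 4.74% and 1.3% in the main fit and 9.73% and 7.16% with the block. Leaving out unstimulated library 1 left 425 genes called and leaving out CpG library 2 left 432, and 342 were called in each of the 12 fits that left out 1 library. The number that fell was 78 without unstimulated library 1, 93 without unstimulated library 3, 68 without CpG library 1, 73 without CpG library 2, 90 without unstimulated knockout library 2 and 219 without CpG-treated knockout library 3.

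**Figure D1:**
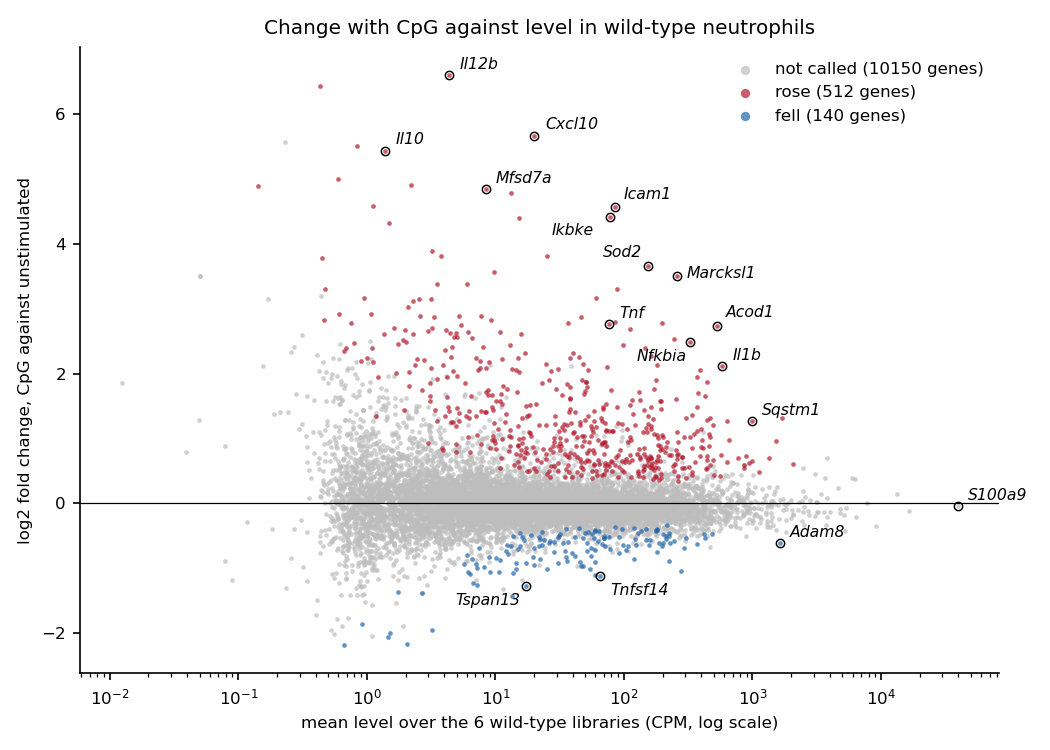
Log2 fold change with CpG against mean level in CPM (log axis) for the 10802 genes tested in wild-type neutrophils; each point is a gene, red where it rose (512), blue where it fell (140) and grey where it was not called. The strongest rises, such as Il12b and Cxcl10, started from low levels, while Sqstm1 and Il1b moved at high ones, and S100a9 at the far right did not move.

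The NF-kB family itself rose nearly as a whole. Of 16 subunits, IkB inhibitors and IkB kinases tested, 12 rose and none fell, with a median log2 fold change of 0.86 against -0.01 over all genes, and 14 of the 16 estimates were above 0. The count was 10 to 12 in the fits that left out 1 library. The subunits of the non-canonical branch led: Relb stood at 29.3, 29.1 and 31.3 CPM unstimulated and at 186, 209 and 183 CPM with CpG, a 6.45-fold rise (log2 2.69, SE 0.13; edgeR adjusted p = 2.88e-08). Nfkb2, which encodes its p100/p52 partner, went from 64.0, 72.6 and 77.4 to 390, 459 and 395 CPM, a 5.81-fold rise (edgeR adjusted p = 3.02e-08). In both genes the CpG libraries were close together and far above all unstimulated ones. The canonical subunits moved less, with Nfkb1 rising from 168 ± 18.1 to 281 ± 12.98 CPM (log2 0.75, SE 0.11) and Rel from 75.9 ± 5.38 to 119 ± 6.81 CPM (log2 0.65, SE 0.12). Rela, at 107, 115 and 103 CPM unstimulated and 140, 166 and 145 CPM with CpG, passed the threshold narrowly (log2 0.47; edgeR adjusted p = 0.0465) and missed it in 8 of the 12 fits without a library, at adjusted p between 0.0662 and 0.212.

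Inhibitors of NF-kB rose beside the subunits. Nfkbia, the gene of IkBα, which holds NF-kB in the cytosol, was at 104, 98.2 and 98.3 CPM unstimulated and at 536, 567 and 573 CPM with CpG (log2 2.48, SE 0.12; edgeR adjusted p = 2.88e-08). Nfkbie, the gene of IkBε, went from 10.5, 11.3 and 11.8 to 71.9, 108 and 65.2 CPM (log2 2.87, SE 0.20; edgeR adjusted p = 8.06e-07). The groups did not overlap in either gene, and CpG library 2 was the highest for Nfkbie. The nuclear IkB-like regulators Bcl3 (log2 1.90, SE 0.22) and Nfkbiz (log2 1.34, SE 0.12) rose too. Tnfaip3 encodes A20, an enzyme that edits ubiquitin chains and shuts down signalling to NF-kB. It stood at 37.2, 59.6 and 53.9 CPM unstimulated and at 302, 425 and 312 CPM with CpG, a 6.89-fold rise (edgeR adjusted p = 4.95e-07). The steepest rise in the family was that of Ikbke, the gene of the kinase IKKε, from 7.59, 4.99 and 8.26 to 154, 150 and 142 CPM (log2 4.42, SE 0.22; edgeR adjusted p = 3.02e-08).

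Stretches of the promoters of 3 of these inhibitors are printed below because each holds a match to a strict NF-kB motif, GGGNNNTTCC, searched on both strands of the 250 bases upstream of the start. They come from RefSeq promoter windows of the build GRCm38.p6, an earlier build than the GRCm39 named for the deposited data, run 5′ to 3′ on the gene's strand, and show the match in capitals. The Nfkbia stretch is chr12:55492648-55492706 on the minus strand, with the match starting 29 bases before the start of the transcript. The Tnfaip3 stretch is chr10:19015411-19015452 on the minus strand, with its match starting 12 bases before. The Nfkbie stretch is chr17:45555564-45555633 on the plus strand, with its match starting 106 bases before.
Nfkbia: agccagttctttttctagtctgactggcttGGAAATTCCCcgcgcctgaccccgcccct
Tnfaip3: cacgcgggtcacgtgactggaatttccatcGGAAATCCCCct
Nfkbie: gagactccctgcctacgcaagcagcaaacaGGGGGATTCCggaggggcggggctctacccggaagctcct

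Over all genes the share of promoter windows with this motif followed the size of the rise. Windows were found for 8755 of the 10802 genes tested, 11170 windows in all, and 5.37% of them held a match. Among genes that rose the share was 11.4% (62 of 542 windows), among those that rose at least 4-fold 22.3% (23 of 103), and among those that fell 6% (9 of 150). The NF-kB family list had matches in 8 of 19 windows (42.1%). A looser form, GGGNNNNNCC, was in 61.1% of all windows and in 60.2% of those of genes that rose at least 4-fold, so it did not set them apart. The AP-1 motif TGANTCA was in 4.7% of all windows and 15.5% of those of the genes that rose at least 4-fold, the TATAAA box in 6.31% and 15.5%, and the CRE-like motif TGACGNCA in 4.68% and 0 of 103. These are letter matches in a fixed window, not measured binding sites.

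**Figure D2:**
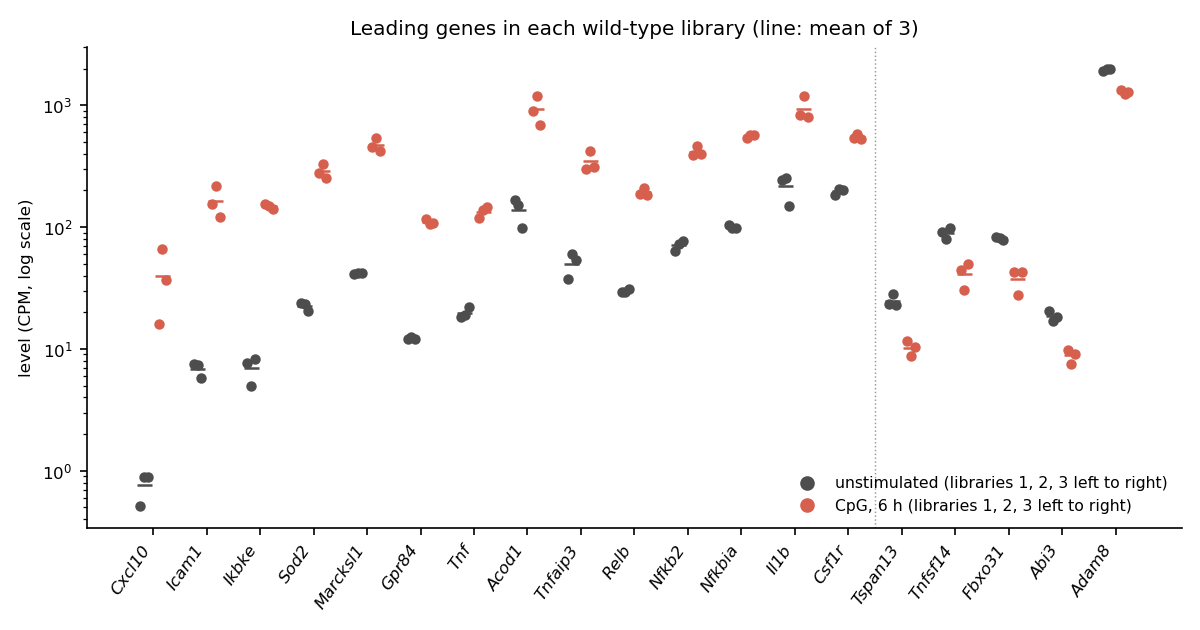
Levels in CPM (log axis) of 19 genes in each wild-type library; dark points are unstimulated, red points CpG-treated, libraries 1, 2 and 3 from left to right within each trio, and lines the mean of 3. The 14 genes left of the dotted line rose and the 5 right of it fell. The groups did not overlap in any of them, which a call nearly implies and which was required in picking the largest changes.

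Upstream of NF-kB, both the receptor and its adaptor rose. Tlr9 itself was scarce and rose 2.67-fold, from 2.90, 4.11 and 3.05 to 8.48, 8.87 and 9.68 CPM (log2 1.42, SE 0.23; edgeR adjusted p = 0.00154). Myd88, the adaptor gene, rose from 107 to 180 CPM (log2 0.75, SE 0.11). In the list of MyD88, IRAK, TRAF and A20 pathway genes 13 of 33 tested rose and none fell, with a median log2 fold change of 0.21. Traf1, which encodes an NF-kB-induced TRAF family adaptor, was the strongest of them, from 3.84, 3.08 and 3.13 to 48.0, 50.4 and 42.2 CPM (log2 3.81, SE 0.20; edgeR adjusted p = 3.56e-08). Birc3, the gene of the ubiquitin ligase cIAP2, rose from 151 ± 2.63 to 627 ± 45.5 CPM, and Tnip1, which encodes the A20-binding protein ABIN1, from 152 ± 18.8 to 586 ± 18.1 CPM. These were a 4.15-fold and a 3.87-fold rise, with the groups far apart. Irak3, the inhibitory member of the IRAK family, rose from 176 to 573 CPM (log2 1.70, SE 0.15), while Map3k8, the gene of the kinase TPL2 that feeds the ERK pathway, rose from 15.8 to 56.8 CPM (log2 1.84, SE 0.16).

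Other nucleic acid sensors were called in part. Of 28 sensing genes tested 8 rose and 1 fell, and with library number as a block 13 rose and 3 fell. The number that rose dropped to 3 without unstimulated library 1, to 3 without unstimulated library 2, to 5 without CpG library 2 and to 4 without CpG library 3. The 1 that fell, Tlr8, lost its call without any of the 6 wild-type libraries or unstimulated knockout library 2, at adjusted p between 0.059 and 0.12. Ifi204, which encodes a DNA-binding protein of the interferon-inducible p200 family, went from 62.7, 46.5 and 94.2 to 256, 222 and 411 CPM (log2 2.13, SE 0.26; edgeR adjusted p = 0.000161). Trex1, the gene of the exonuclease that clears cytosolic DNA, went from 12.97, 8.37 and 14.3 to 37.7, 42.98 and 68.8 CPM (log2 2.07, SE 0.28; edgeR adjusted p = 0.000338). In both genes library 3 was the highest of its group with and without CpG.

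Factors that destabilise cytokine mRNA and curb MAP kinases also rose in part. Of 15 mRNA decay genes tested 4 rose, among them N4bp1, from 203, 199 and 213 to 620, 706 and 610 CPM (log2 1.66, SE 0.12; edgeR adjusted p = 1.84e-06), and Zc3h12a, the gene of the endoribonuclease Regnase-1, from 33.7 ± 5.56 to 76.8 ± 3.32 CPM. Its relative Zc3h12c rose 6.7-fold from a low level, 1.38 ± 0.37 to 9.40 ± 1.57 CPM. Of 13 MAP kinase phosphatase and feedback genes 3 rose, with Dusp16 at 10.1 ± 2.03 and 25.5 ± 5.03 CPM (log2 1.35, SE 0.23). The median log2 fold change of the 13 was 0.16. The count was 2 when any 1 of the 6 wild-type libraries or either knockout library numbered 2 was left out, and 4 without CpG-treated knockout library 1. Of 27 immediate early genes 6 rose, and 10 with library number as a block. Nr4a1, a nuclear receptor gene of this class, rose from 10.6 ± 1.32 to 30.6 ± 6.82 CPM (log2 1.53, SE 0.21).

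Cytokine genes spanned log2 fold changes from -1.12 to 6.60. Of 33 in the data 28 had enough reads to be tested. Of the 28 tested 16 rose and 1 fell, with a median log2 fold change of 0.87, and 10 rose without unstimulated library 1. Il12b, Il10 and Il23a, with almost no counts without CpG, could pass the filter only through libraries where they were high. This favours rises in the count, the median and the top of the range. Tnf, the gene of tumour necrosis factor, stood at 18.3, 19.2 and 22.1 CPM unstimulated and at 118, 138 and 147 CPM with CpG (log2 2.76, SE 0.12; edgeR adjusted p = 1.29e-08). Il1b was abundant before stimulation, at 245, 255 and 148 CPM, and reached 829, 1188 and 801 CPM (log2 2.12, SE 0.21; edgeR adjusted p = 2.01e-05). For Tnf the CpG libraries spread little, and for Il1b library 2 stood above the other two while unstimulated library 3 was the lowest. Il1a, which encodes the other IL-1 agonist, was far scarcer and rose from 1.23 ± 0.764 to 9.22 ± 0.686 CPM (log2 2.89, SE 0.37). Il1f9, the gene of IL-36γ, rose 2.03-fold from a high level, 309 to 628 CPM (log2 1.02, SE 0.18), and Ltb, which encodes lymphotoxin β, from 77.5 to 264 CPM (log2 1.77, SE 0.18). The member that fell was Tnfsf14, the gene of the TNF family ligand LIGHT, at 91.5, 79.5 and 98.4 CPM unstimulated and 44.4, 30.4 and 49.3 CPM with CpG (log2 -1.12, SE 0.22; edgeR adjusted p = 0.00681).

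A few cytokine genes were almost silent without CpG. Il12b, which encodes the p40 subunit shared by IL-12 and IL-23, had 0, 2 and 1 counts in the unstimulated libraries and 61, 185 and 83 with CpG. The ratio of summed counts, scaled for library size, was 109 (95% interval 37.0 to 532 from counting error alone). Il10, the gene of an anti-inflammatory cytokine, had 1, 1 and 0 counts against 36, 44 and 24, a ratio of 51.8 (interval 14 to 433). Il23a, the second subunit of IL-23, had 0, 1 and 0 counts against 8, 23 and 13. Il12a, the second subunit of IL-12, rose from 0.813 to 5.18 CPM (log2 2.65, SE 0.29). Every CpG library was above every unstimulated one in these 4 genes, and library 2 was the highest in each. With a mean under 0.3 CPM unstimulated and of at least 2 CPM with CpG, 5 genes counted as switched on: Il12b, Il10, Ifi205 (ratio 32.3, interval 13.5 to 101), Edn1, the endothelin-1 gene (ratio 21.7, interval 9.02 to 68.2), and Lad1 (ratio 27.2, interval 8.99 to 135). Each had at most 3 counts in any unstimulated library.

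Chemokine genes had the highest median log2 fold change of the 35 function lists, 1.79. Of 22 in the data only 13 had enough reads to be tested. A gene scarce without CpG can pass that filter only through libraries where it is high, which favours rises in this median. Of the 13 tested 8 rose and 1 fell. Cxcl10, the interferon- and NF-kB-inducible ligand of the T cell receptor CXCR3, had the largest rise among genes averaging 5 CPM or more over the wild-type libraries. It was at 0.512, 0.881 and 0.882 CPM unstimulated and at 15.9, 65.8 and 36.8 CPM with CpG (log2 5.67, SE 0.64; edgeR adjusted p = 7.47e-05). All CpG libraries were far above the unstimulated ones, with library 2 the highest and library 1 the lowest. Ccl5 followed the same order of libraries at lower levels, 4.58, 9.79 and 4.84 CPM against 0.512, 0.734 and 0.561 (log2 3.38, SE 0.46). The neutrophil attractant Cxcl2 rose evenly, from 24.9, 21.1 and 19.2 to 75.9, 84.5 and 78.2 CPM (log2 1.87, SE 0.15; edgeR adjusted p = 3.72e-06), and so did Ccl3, from 16.9 ± 3.18 to 58.8 ± 3.69 CPM. Ccl6 went the other way, from 430, 373 and 319 to 210, 166 and 171 CPM (log2 -1.04, SE 0.27; edgeR adjusted p = 0.0339). Its call was lost without any of unstimulated libraries 1 and 2 and CpG libraries 1, 2 and 3, at adjusted p between 0.0632 and 0.118.

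Among receptors for attractants and microbial products, some rose and others did not. Gpr84, a receptor for medium-chain fatty acids, stood at 12.03, 12.6 and 12.1 CPM unstimulated and at 116, 106 and 107 CPM with CpG (log2 3.16, SE 0.15; edgeR adjusted p = 2.41e-08). Both groups were tight and far apart. Ccrl2, an atypical receptor that binds chemerin, went from 28.6, 37.9 and 25.4 to 140, 222 and 139 CPM (log2 2.44, SE 0.26; edgeR adjusted p = 3.86e-05). These were 2 of the 4 members that rose among 22 chemoattractant receptors, a count of 2 without unstimulated library 1, unstimulated library 3 or CpG library 2, while with library number as a block 8 rose and 7 fell. The median log2 fold change of the 22 was -0.01. Among 24 surface Toll-like, lectin, formyl peptide and TREM receptors 8 rose and 1 fell, with a median log2 fold change of 0.44, and 10 rose and 3 fell with the block. The formyl peptide receptor gene Fpr1 rose from 284, 231 and 292 to 700, 573 and 734 CPM (log2 1.31, SE 0.14; edgeR adjusted p = 5.33e-05). Clec5a, a DAP12-coupled lectin gene, rose from 189 ± 24.8 to 486 ± 29.0 CPM, Clec4e, which encodes Mincle, from 299 to 688 CPM, and Tlr2 from 232 to 503 CPM. Clec7a, the gene of the β-glucan receptor Dectin-1, was lower at 195 ± 23.9 than at 293 ± 19.3 CPM (log2 -0.59; edgeR adjusted p = 0.029), a call lost without any of unstimulated libraries 1 and 2 and CpG libraries 2 and 3, at adjusted p between 0.0564 and 0.0906.

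Of 30 cytokine receptor genes 8 rose and 1 fell, and with library number as a block 11 rose and 5 fell. Without CpG library 3 the number that fell was 2. Cd40, the receptor through which T cells license myeloid cells, went from 0.427, 0.881 and 0.16 to 5.78, 9.48 and 6.05 CPM (log2 3.81, SE 0.54; edgeR adjusted p = 0.000518). Fas, a death receptor gene, rose from 59.0, 57.8 and 67.1 to 187, 216 and 200 CPM (log2 1.71, SE 0.12), Il10ra from 56.7, 57.3 and 59.6 to 151, 168 and 175 CPM (log2 1.51, SE 0.11), and Tnfrsf1b, the gene of TNF receptor 2, from 368 to 890 CPM (log2 1.28, SE 0.14). Csf1r, the receptor of the macrophage growth factor M-CSF, rose from 183, 204 and 203 to 537, 582 and 530 CPM (log2 1.48, SE 0.13; edgeR adjusted p = 6.41e-06). Adgre1, the gene of the macrophage antigen F4/80, rose from 29.9, 21.0 and 33.7 to 127, 93.2 and 142 CPM (log2 2.10; edgeR adjusted p = 3.06e-05). Both belong to the list of 17 monocyte and macrophage markers, of which these 2 rose and none fell, or 6 and 2 with library number as a block. Estimates were above 0 for 13 of the 17, with a median log2 fold change of 0.21. Its summed level was 5876 to 6401 CPM unstimulated and 7881 to 8648 CPM with CpG, most of it Lyz2, at 4902 to 5462 and 6454 to 7152 CPM, and no member was at 0 in all libraries. The part of other cells in the rise of Csf1r and Adgre1 was not tested.

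**Figure D3:**
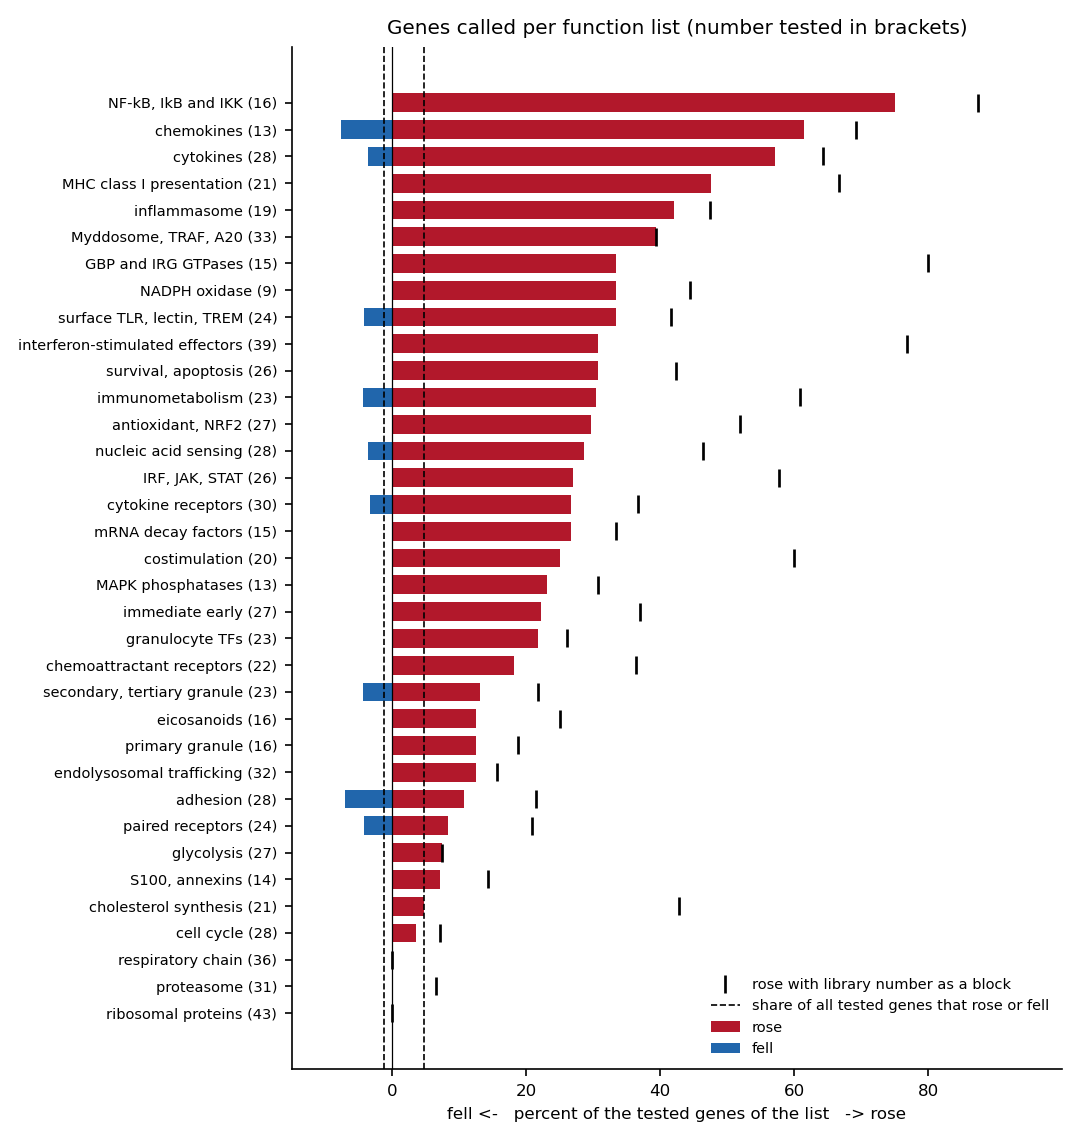
Percent of the tested genes of each of 35 function lists that rose (red, to the right) or fell (blue, to the left) with CpG, with the number of genes tested in brackets. Dashed lines mark the share of all tested genes that rose (4.74%) or fell (1.3%). Black ticks mark the percent that rose with library number as a block. The ticks lie far right of the bars for the interferon-linked lists and for others, among them costimulation (12 against 5 of 20 genes) and cholesterol synthesis (9 against 1 of 21).

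Interferon-stimulated genes were mostly higher with CpG, from baselines that differed between libraries. Of 39 antiviral effectors tested 12 rose and none fell, yet 38 of the 39 estimates were above 0 and the median log2 fold change was 1.04, against -0.01 over all genes. With library number as a block 30 rose (30 of 39, where 9.73% of all genes rose). The 12 fell to 4 without unstimulated library 1, to 2 without unstimulated library 2 and to 3 without CpG library 3, and the count was 7 in a robust fit and 22 without a filter on low counts. Rsad2, which encodes the antiviral enzyme viperin, stood at 114, 61.6 and 139 CPM unstimulated and 228, 209 and 420 CPM with CpG (log2 1.45; edgeR adjusted p = 0.0267). Library 3 was the highest and library 2 the lowest in both groups, and the groups did not overlap. Isg15, the ubiquitin-like modifier gene, went from 27.9, 12.4 and 29.3 to 59.98, 59.4 and 112 CPM, and Ifit1, which encodes a binder of foreign RNA ends, from 13.9, 7.93 and 18.4 to 37.9, 50.7 and 112 CPM. The calls of Rsad2 and Ifit1 were lost without unstimulated library 1 or 2 or CpG library 3, at adjusted p between 0.0827 and 0.123 and between 0.0541 and 0.0697, and that of Isg15 without any of 7 libraries, 5 of them wild-type, at adjusted p between 0.051 and 0.147. Parp14, an interferon-linked ADP-ribosyltransferase gene, and Parp9 kept their calls in every such fit. Parp14 stood at 70.6, 57.2 and 97.1 CPM unstimulated and 225, 268 and 345 CPM with CpG (log2 1.90, SE 0.25; edgeR adjusted p = 0.000258).

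The interferon-inducible GTPases were similar. All 15 tested guanylate-binding (GBP) and immunity-related (IRG) GTPase genes had estimates above 0, with a median log2 fold change of 1.28, and 5 rose, or 12 with library number as a block. The count was 2 without any of the 3 unstimulated wild-type libraries, CpG library 2 or 3, unstimulated knockout library 2 or CpG-treated knockout library 2, and 8 without CpG-treated knockout library 3. It was also 2 with scaling by library size alone or in a robust fit, and 8 in DESeq2, without a filter or with the wild-type libraries alone. Gbp5 went from 0.171, 0.367 and 0.641 to 2.55, 9.79 and 5.62 CPM (log2 3.88, SE 0.69; edgeR adjusted p = 0.00304), with CpG library 2 the highest. Gbp2 went from 9.38, 5.29 and 15.6 to 29.7, 30.1 and 49.4 CPM (log2 1.85, SE 0.35; edgeR adjusted p = 0.0046), with library 3 the highest in both groups. Between same-numbered libraries, with 0.5 CPM added to each level, the median log2 ratio of the antiviral effectors was 0.72, 1.23 and 1.14 for numbers 1, 2 and 3, and that of the GTPases 0.92, 1.19 and 1.18. Among the 54 genes of both lists pair 1 held the largest ratio for 1 gene, pair 2 for 24 and pair 3 for 29. Over all 10802 genes tested the counts for pairs 1, 2 and 3 were 3566, 3278 and 3958. For the 16 NF-kB family genes the medians were 0.90, 0.90 and 0.77, with pair 2 holding the largest ratio for 13 and pair 1 for 1. A low pair 1 was not particular to the interferon-linked lists. Over all 512 genes that rose the medians were 0.99, 1.19 and 1.04, with pair 1 holding the largest ratio for 82.

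**Figure D4:**
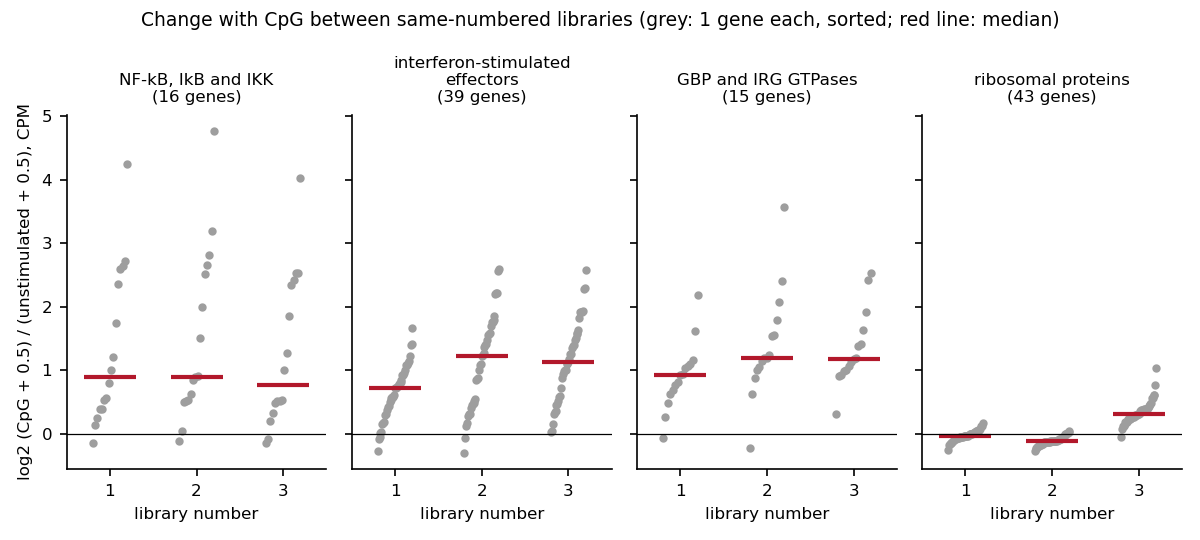
Log2 ratio of CpG to unstimulated level (CPM + 0.5) within each same-numbered pair of wild-type libraries, for the tested genes of 4 lists; grey points are genes, sorted within each pair, and red lines the medians. The medians of both interferon-linked lists were lowest in pair 1, as was that of all 512 genes that rose (0.99, 1.19 and 1.04 in pairs 1, 2 and 3, not drawn). The 43 ribosomal protein genes were near 0 in pairs 1 and 2 and above it in pair 3.

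Genes of the signalling that leads to and from interferon were called in part. Of 26 IRF, JAK, STAT and SOCS genes 7 rose and none fell, and 15 rose and 2 fell with library number as a block. The 7 became 4 without unstimulated library 1, 3 without unstimulated library 2, 3 without CpG library 3 and 12 with the wild-type libraries alone. Tyk2, a kinase of the type I interferon receptor, rose from 46.2, 37.2 and 57.5 to 120, 136 and 137 CPM (log2 1.48, SE 0.17; edgeR adjusted p = 6.84e-05), and Irf5, a transcription factor gene downstream of MyD88, from 26.4, 27.5 and 24.4 to 51.2, 61.7 and 54.4 CPM (log2 1.10, SE 0.11; edgeR adjusted p = 2.95e-05). The receptor chain gene Ifnar1 rose from 134 to 248 CPM (log2 0.89, SE 0.10). Irf7, at 64.8, 51.9 and 76.5 CPM unstimulated and 101, 96.4 and 179 CPM with CpG, did not pass the threshold (edgeR adjusted p = 0.05003). The interferon-stimulated response element, searched as GAAANNGAAA on both strands, was in 2.86% of all promoter windows, in 6.09% of those of genes that rose and in 26 of 52 windows (50%) of the antiviral effector and GTPase genes. A set of 3 stretches is printed to show it, from the same RefSeq windows, with the match in capitals: Gbp5 at chr3:142496739-142496808 on the plus strand, Gbp2 at chr3:142620574-142620643 on the plus strand and Slfn8, a Schlafen family gene, at chr11:83020819-83020888 on the minus strand. Their matches start 165, 59 and 48 bases before the start. Slfn8 rose from 37.0 to 107 CPM (log2 1.53; edgeR adjusted p = 0.00929), and missed the threshold without unstimulated library 2, at adjusted p = 0.0518.
Gbp5: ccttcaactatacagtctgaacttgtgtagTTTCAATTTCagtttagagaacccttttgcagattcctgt
Gbp2: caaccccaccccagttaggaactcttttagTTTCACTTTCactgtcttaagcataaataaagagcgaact
Slfn8: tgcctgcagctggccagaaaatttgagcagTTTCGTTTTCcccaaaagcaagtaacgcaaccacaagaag

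Inflammasome genes, which assemble platforms that activate inflammatory caspases, rose in 8 of 19 cases and fell in none, with a median log2 fold change of 0.41. Mefv, the gene of the sensor pyrin, stood at 57.5, 35.2 and 47.9 CPM unstimulated and at 271, 217 and 250 CPM with CpG (log2 2.39, SE 0.16; edgeR adjusted p = 6.01e-07). Casp4, which encodes the LPS-sensing caspase-11 of the mouse, went from 20.8, 15.9 and 24.4 to 77.2, 78.7 and 99.2 CPM (log2 2.06, SE 0.17; edgeR adjusted p = 3.72e-06). In both genes the lowest CpG library was at least 3 times the highest unstimulated one. Nlrc4 rose from 1.44 ± 0.575 to 8.63 ± 1.22 CPM, Nlrp3 from 117 ± 18.2 to 243 ± 39.6 CPM and Nod2, a sensor gene for bacterial muramyl dipeptide, from 10.2 ± 1.73 to 26.4 ± 5.85 CPM. The Casp4 promoter held 3 matches to the strict NF-kB motif. They start 93, 39 and 14 bases before the start, in the stretch chr9:5308726-5308848 on the plus strand.
Casp4: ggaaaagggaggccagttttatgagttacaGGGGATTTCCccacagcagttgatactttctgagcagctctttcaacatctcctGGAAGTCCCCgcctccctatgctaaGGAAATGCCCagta

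Genes of MHC class I presentation, which display peptides to CD8 T cells, rose in 10 of 21 cases and fell in none, and 20 of the 21 estimates were above 0 (median log2 0.72). The 10 became 8 without unstimulated library 1, 7 without unstimulated library 2 or CpG library 3, and 14 with library number as a block. B2m, the light chain gene, had the largest gain in TPM of all genes that rose, from 1223, 1408 and 1764 to 2302, 2466 and 2397 TPM. In CPM it went from 568, 644 and 815 to 1052, 1109 and 1197 (log2 0.73, SE 0.14; edgeR adjusted p = 0.00635). The peptide transporter gene Tap1 rose from 94.0, 78.9 and 116 to 183, 180 and 255 CPM (log2 1.10, SE 0.20), and the proteasome activator gene Psme2 from 54.0, 51.0 and 54.4 to 116, 122 and 139 CPM (log2 1.24, SE 0.11). H2-Q4 rose 2.8-fold, from 36.3 ± 0.786 to 102 ± 16.9 CPM, although reads of such near-identical class I genes can be split wrongly between copies. Of 20 costimulation genes 5 rose, or 12 with library number as a block and 11 with the wild-type libraries alone. Cd274, the gene of the checkpoint ligand PD-L1, went from 67.9, 52.1 and 53.5 to 126, 156 and 124 CPM (log2 1.23, SE 0.16; edgeR adjusted p = 0.000216), and Cd83 from 5.89, 5.58 and 4.01 to 18.9, 25.1 and 20.7 CPM (log2 2.06, SE 0.35).

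Granule genes encode the stored antimicrobials of neutrophils. Of 16 primary granule genes 2 rose (4.74% of all genes tested rose), or 3 with 2 falling when library number was a block. They were the cathepsin genes Ctsz (150 ± 18.5 to 274 ± 25.3 CPM, log2 0.87, SE 0.12; edgeR adjusted p = 0.000286) and Ctsb. Ctsb was lost without unstimulated library 1 or CpG library 2, at adjusted p between 0.051 and 0.0535, which leaves 1 of the 2. In the list of 23 genes for secondary and tertiary granules 3 rose and 1 fell, with a median log2 fold change of -0.02. With the block 5 rose and 3 fell, and 1 rose without unstimulated library 1 or CpG library 2. Chil1, which encodes a chitinase-like granule protein, was the steadiest of these, at 1021, 1000 and 1027 CPM unstimulated and 1625, 1672 and 1662 CPM with CpG (log2 0.70, SE 0.13; edgeR adjusted p = 0.00538). Adam8, a surface metalloprotease gene, fell from 1918, 1982 and 1992 to 1331, 1236 and 1286 CPM (log2 -0.61, SE 0.12; edgeR adjusted p = 0.00507). Of 9 NADPH oxidase genes 3 passed, Cybb, Ncf4 and Hvcn1, by at most 1.59-fold. None of the 3 passed without unstimulated library 1 or CpG library 2, and 1 passed without unstimulated library 3 or CpG library 1. Cybb, the gene of the catalytic subunit gp91phox, was at 648, 765 and 826 CPM unstimulated and 1050, 1238 and 1141 CPM with CpG. S100a8 and S100a9 were not called, and of 14 S100 and annexin genes 1 rose, or 2 with library number as a block, led by Anxa5 (83.3 ± 4.58 to 117 ± 0.817 CPM).

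Adhesion genes moved both ways. Of 28 tested 3 rose and 2 fell, and 6 rose and 6 fell with library number as a block. Over all genes tested 4.74% rose and 1.3% fell, and with the block 9.73% rose and 7.16% fell. Icam1, the ligand of the leukocyte β2 integrins, went from 7.51, 7.34 and 5.77 to 153, 217 and 120 CPM, a 23.8-fold rise (log2 4.57, SE 0.23; edgeR adjusted p = 3.02e-08). Itga5, the α chain gene of the fibronectin receptor, rose from 14.5, 11.5 and 14.2 to 56.6, 68.2 and 64.4 CPM (log2 2.24, SE 0.17; edgeR adjusted p = 1.98e-06). Tspan13, a tetraspanin gene, fell from 23.3, 27.97 and 22.8 to 11.6, 8.72 and 10.3 CPM (log2 -1.28, SE 0.20; edgeR adjusted p = 0.00119). Itgb5 was lower as well, at 8.18, 8.57 and 5.18 against 17.1, 29.4 and 12.7 CPM, but this call was lost without unstimulated library 2 or CpG library 3, at adjusted p between 0.0825 and 0.102, which leaves 1 that fell.

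The largest rises in metabolic genes were from near-absent to moderate levels. Mfsd7a, a transporter-like gene, stood at 0.427, 0.661 and 0.561 CPM unstimulated and at 16.7, 17.6 and 14.4 CPM with CpG (log2 4.85, SE 0.37; edgeR adjusted p = 1.9e-06). Lacc1, which encodes a purine-metabolising enzyme of inflammatory macrophages, went from 0.427, 0.808 and 1.52 to 28.6, 19.96 and 28.4 CPM (log2 4.78, SE 0.36), and Smpdl3b, a membrane phosphodiesterase gene, from 1.71, 1.10 and 1.36 to 27.6, 29.8 and 30.8 CPM (log2 4.40, SE 0.21). In each of the 3 the lowest CpG library was at least 10 times the highest unstimulated one. Acod1, the gene of the enzyme that makes itaconate, was already at 168, 152 and 97.5 CPM and reached 898, 1196 and 689 CPM (log2 2.74, SE 0.25; edgeR adjusted p = 9.17e-06). Of the 23 genes of the immunometabolism list 7 rose and 1 fell, and 14 rose and 2 fell with library number as a block. The 1 that fell, Nt5e, lost its call without unstimulated library 1 or 2, CpG library 1 or 3, or either knockout library numbered 2, at adjusted p between 0.0522 and 0.197. Of 27 glycolysis genes 2 rose, the sugar transporter gene Slc2a6 (125 ± 17.9 to 381 ± 10.4 CPM) and Hif1a (198 ± 22.3 to 316 ± 63.3 CPM), and the median was -0.11. With the block 2 rose and 5 fell. Over all genes tested 4.74% rose in the main fit, and 9.73% rose and 7.16% fell with the block. Hif1a was lost without unstimulated library 3 or CpG library 2, at adjusted p between 0.065 and 0.0706, which leaves 1. For cholesterol synthesis the fits differed, with 1 of 21 genes rising (Idi1), 9 with library number as a block, 3 in DESeq2, none with the wild-type libraries alone, 2 without unstimulated library 3 or CpG-treated knockout library 1, and none without unstimulated library 1 or 2 or unstimulated knockout library 2, at a median of 0.36. Ptges, the prostaglandin E synthase gene, rose from 6.81 ± 1.39 to 22.4 ± 4.11 CPM (log2 1.72, SE 0.18).

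Genes of protection against oxidants were led by Sod2, the mitochondrial superoxide dismutase gene. It went from 24.0, 23.4 and 20.4 to 277, 330 and 253 CPM, a 12.7-fold rise that carried the smallest adjusted p of all genes (log2 3.66, SE 0.13; edgeR adjusted p = 4.54e-09). Of 27 antioxidant and NRF2-linked genes 8 rose and none fell, 14 rose with library number as a block and 5 without CpG library 2. Sqstm1, which encodes the autophagy adaptor p62, rose from 632, 615 and 496 to 1485, 1630 and 1067 CPM (log2 1.26, SE 0.17; edgeR adjusted p = 0.000442). Txnrd1, the thioredoxin reductase gene, rose from 51.7 ± 4.24 to 112 ± 32.4 CPM and Nfe2l2, which encodes NRF2 itself, from 271 to 534 CPM. Of 26 survival and apoptosis genes 8 rose and none fell. Among the 8 were Pmaip1 and Bcl2l11, the genes of the pro-apoptotic proteins Noxa and Bim. Their calls were lost in 2 and 4 fits without a library, at edgeR adjusted p between 0.0546 and 0.0622. The anti-apoptotic Bcl2a1 genes led, with Bcl2a1b at 2.05, 2.20 and 1.202 CPM unstimulated and 11.7, 17.1 and 11.8 CPM with CpG (log2 2.89, SE 0.25), although reads of the near-identical Bcl2a1a, Bcl2a1b and Bcl2a1d copies may be divided between them. Pim1, a survival kinase gene, rose from 76.8 to 208 CPM (log2 1.44, SE 0.13). Mcl1, the main survival factor gene of neutrophils, was at 721, 914 and 915 CPM unstimulated and 844, 988 and 1142 CPM with CpG and was not called.

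Several genes with the largest rises belonged to no single pathway. Marcksl1, an actin-regulating substrate of protein kinase C, stood at 41.5, 41.7 and 41.7 CPM unstimulated and at 458, 538 and 422 CPM with CpG (log2 3.505, SE 0.17; edgeR adjusted p = 2.95e-08). Cd69, an early activation marker of leukocytes, went from 1.19, 1.54 and 1.76 to 17.7, 21.7 and 14.5 CPM (log2 3.57, SE 0.30), and Ralgds, an activator of Ral GTPases, from 16.5, 21.2 and 10.9 to 156, 208 and 116 CPM (log2 3.30, SE 0.25). In all 3 genes CpG library 2 was the highest. Pair 2 held the largest ratio for 300 of the 512 risen genes, pair 1 for 82 and pair 3 for 130. Over all 10802 genes tested pair 2 held it for 3278, pair 1 for 3566 and pair 3 for 3958. Among 23 transcription factors of the granulocyte lineage 5 rose, 6 rose and 4 fell with the block, and 3 rose without unstimulated library 2, unstimulated library 3 or CpG library 2. Zeb2 rose from 60.7, 56.4 and 54.0 to 190, 191 and 136 CPM (log2 1.59, SE 0.15; edgeR adjusted p = 1.83e-05) and Ets2 from 110 ± 22.6 to 231 ± 59.5 CPM. Of 32 endolysosomal trafficking genes 4 rose, or 2 without unstimulated library 1, unstimulated library 3 or CpG library 2, among them Rab20 (31.8 ± 6.61 to 85.1 ± 19.9 CPM) and Tfe3, a regulator gene of lysosome formation (124 ± 10.3 to 200 ± 4.47 CPM).

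No gene of 3 housekeeping lists was called. In edgeR none of 43 ribosomal protein genes, 36 respiratory chain genes or 31 proteasome genes passed the threshold, and at an unadjusted p under 0.05 the counts were 0, 0 and 4. DESeq2 called 0, 0 and 1, and the fit with library number as a block 0, 0 and 2. Their median log2 fold changes were 0.06, 0.04 and 0.12. The pairs were not alike, however. The median log2 ratio of the ribosomal protein genes was -0.04, -0.12 and 0.32 in pairs 1, 2 and 3, and all 43 had their largest ratio in pair 3, as did 33 of the 36 respiratory chain genes. Over all 10802 genes tested pair 3 held the largest ratio for 3958. Of 28 cell cycle genes 1 rose (4.74% of all genes tested rose), Gadd45a, an arrest and DNA damage gene, from 128 ± 1.48 to 194 ± 4.68 CPM. The count was 2 with library number as a block, in DESeq2, without a filter and without CpG-treated knockout library 2, and 3 with the wild-type libraries alone and without CpG-treated knockout library 1.

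Genes that fell did so by small factors and in smaller number. The 4 that fell at least 4-fold, Plekhf1, Gpc3, Tspyl4 and Rassf6, all had a mean of at most 3.37 CPM unstimulated, and were named after their values were seen. Gpc3 and Tspyl4 kept their calls in every fit without a library, while Plekhf1 lost its call in 7 and Rassf6 in 3. Of the 12 steepest falls with a mean of at least 5 CPM, 4 kept their call in each of the 12 fits without a library, against 12 of the 12 steepest rises. Besides Tspan13 and Tnfsf14 these were Fbxo31, a gene of a ubiquitin ligase subunit, from 83.4, 81.6 and 78.5 to 42.6, 27.5 and 42.8 CPM (log2 -1.11, SE 0.21; edgeR adjusted p = 0.00502), and Abi3, a gene of actin remodelling, from 20.6, 17.1 and 18.3 to 9.83, 7.57 and 9.16 CPM (log2 -1.07, SE 0.16; edgeR adjusted p = 0.000778). In both the groups were well apart. Cd300ld, one of a family of near-identical paired receptor genes whose reads can be misassigned, fell from 234, 234 and 214 to 156, 121 and 128 CPM (log2 -0.75, SE 0.15; edgeR adjusted p = 0.00929).

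Ranked by TPM and not by factor, the genes that rose had other leaders. Among them the largest gains after that of B2m were those of Il1b, from 286, 304 and 168 to 986, 1433 and 871 TPM, and Sqstm1, from 471, 467 and 352 to 1125, 1252 and 736 TPM. Chil1, Fpr1, Nadk, Nfkbia, Acod1, Hp and Marcksl1 followed, each gaining between 415 and 569 TPM. Nadk, the gene of the kinase that makes NADP from NAD, rose 1.95-fold from 494 TPM. Of these 10 genes 9 kept their call in every fit without a library, the exception being Hp, the haptoglobin gene, which was lost in 5 such fits at adjusted p between 0.0514 and 0.129. Among genes that fell the losses were led by Adam8 with 302 TPM (879 to 577) and Ccl6 with 212 TPM, then Cyp4f18, Dgat1, Nudt4, Clec7a, Rgs2, Rassf3, Cd300ld and Nt5e with 51.8 to 128 TPM. Only Adam8 and Cd300ld of these 10 kept their call in every such fit. More abundant genes without a call shifted by more TPM. The ferritin gene Fth1 went from 6438, 6456 and 3615 to 9852, 9452 and 7120 TPM (edgeR adjusted p = 0.0521, and 0.000498 with library number as a block), and Retnlg, a resistin-like gene, from 24910, 21040 and 22230 to 17840, 14460 and 16880 TPM (edgeR adjusted p = 0.31). The groups did not overlap in either gene, and both were named after their values were seen.

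Changes in the shares of transcripts within a gene were rare. Among 6208 genes with at least 2 testable transcripts, 9 shifted (0.145%) in edgeR's test of transcript shares, and 341 had an unadjusted p under 0.05. The count was 17 with limma, 3 with curated transcripts alone, 2 with library number as a block, 5 without unstimulated library 3 and 15 without CpG library 1. The deposited transcript counts are estimates that divide shared reads, and the error of that division is not in the test. Tnip1, described above, shifted (edgeR adjusted p = 5.03e-06 for the gene). It lost a predicted transcript that had made up 6.5, 19.4 and 13.97% of its counts and was at 0 in all CpG libraries. A curated one went from 17.1, 10.3 and 12.6 to 32.8, 33.3 and 32.8%, but was not called by itself (edgeR adjusted p = 0.52). With curated transcripts alone the shift was not called (adjusted p = 1). In Tank, the gene of a TRAF-binding protein that links to IKKε and TBK1, a curated transcript rose from 0, 2.98 and 0% to 22.4, 26.6 and 28.3% (edgeR adjusted p = 0.00182), without a call when unstimulated library 1 or 3 was left out (adjusted p = 0.216 and 0.171) and with library number as a block (0.0533). In Lima1, an actin-binding protein gene, a predicted transcript went from 0 in all unstimulated libraries to 24.7, 31.3 and 32.4% (edgeR adjusted p = 0.00185; 0.0607 with the block).

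**Figure D5:**
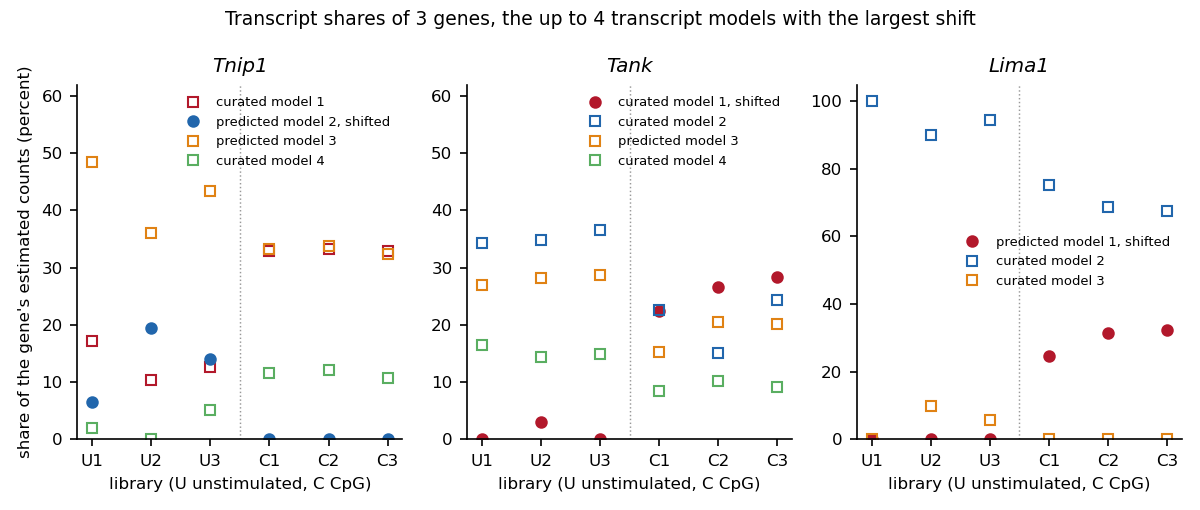
Share of the estimated counts of Tnip1, Tank and Lima1 held by up to 4 of their transcript models in each wild-type library (U unstimulated, C CpG; the axis of Lima1 runs to a higher value); filled circles mark the transcript that shifted, open squares those that did not. In each gene the filled circles of the 3 CpG libraries lie wholly apart from those of the unstimulated libraries.

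Whether knockout neutrophils responded differently was tested as an interaction in the same fit of 10802 genes. Rab27a itself, the targeted gene, was at 231, 251 and 335 CPM unstimulated and 207, 216 and 285 CPM with CpG in wild-type cells and at 94.9 to 129 CPM in all 6 knockout libraries. In edgeR no gene passed (lowest adjusted p = 0.562), 365 (3.38%) had an unadjusted p under 0.05, DESeq2 called 3 and the fit with library number as a block 13. Of the 652 genes called in wild-type cells 648 (99.4%) had an estimate of the same sign in the knockout, where 475 of the 512 also rose and 107 of the 140 also fell. Over all 10802 genes, 818 rose and 439 fell in the knockout. The share of same signs over all genes was not computed. The 2 comparisons share no library, but they share one estimate of the spread. The smallest unadjusted p-values for a difference belonged to Alas1, the first enzyme gene of heme synthesis (log2 fold change 1.06 in wild-type and 2.07 in knockout cells), Smpdl3b (4.40 and 6.31) and Csf1r (1.48 and 2.33), none of which passed after adjustment.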

How the data were processed

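Polyadenylated RNA of 12 libraries was aligned and quantified by the authors with Bowtie2 (no version stated) and RSEM 1.2.28 against GRCm39, per the submitters' processing notes. The deposited files give estimated counts, and TPM and FPKM computed by the authors, for 54716 transcripts (24908 curated and 29808 predicted models), per the file headers; FPKM was not used. The sources used here do not state strandedness. Estimated counts were summed per gene and rounded; 15883 of 15986 genes matched a symbol, and the 103 others held at most 0.101% of counts. The wild-type libraries held 11444586 to 13164438 counts.

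edgeR 4.0.16 in R 4.3.3 fitted the 4 groups of 12 libraries together (TMM scaling, quasi-likelihood test, minimum count 10 and total 15, Benjamini-Hochberg adjustment, threshold 0.05; biological coefficient of variation 17.1%, 8 residual degrees of freedom). limma 3.58.1 and DESeq2 1.42.0 gave alternatives. The scripts were tested on simulated data. Same-numbered wild-type libraries deviated together (r = 0.279, 0.408 and 0.437, all above 0.1). A fit with library number as a block was therefore run beside the main one. Other numbers gave -0.318 to -0.0553. Deviations were taken from group means, which pushes these values below 0 once same-numbered ones are above 0. In the knockout libraries, which the block fit also paired, r was 0.619, 0.085 and 0.678 for numbers 1, 2 and 3, so number 2 was under 0.1. Intervals of count ratios cover counting error only.

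Named genes followed a rule: the 12 largest rises and 12 largest falls at a mean of at least 5 CPM with no overlap between groups; up to 4 called members of each of 35 function lists at a mean of at least 1 CPM, or the 2 most abundant where fewer than 2 were called; the 10 largest TPM changes each way; genes switched on from under 0.3 to at least 2 CPM; 8 leading transcript shifts; and the 6 smallest interaction p-values. It picked 158 genes, of which not all are printed; those called in every fit without a library were preferred. Other list and marker genes are named after their values were seen. The members and lists were chosen with earlier results of these data known.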

Additional observations from a re-analysis of the deposited data

How the results depend on the processing

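Against 652 called genes, 1824 were called with the replicate block (library number) and 2618 with the block in the 6 wild-type libraries alone; fits that left out 1 library called 425 to 758. Genes that rose numbered 1051 and 1361 in those block fits, against 512, and 347 to 570 without a library. Genes that fell numbered 773 and 1257 with the block, 224 with scaling by library size alone, 218 with the wild-type libraries alone and 240 in DESeq2, against 140, and 68 (without CpG library 1) to 219 (without CpG-treated knockout library 3) without a library. The count of at least 2-fold changes stayed within 1.5 times of 316 in each setting, at 236 to 348 without a library. For the difference between genotypes the counts were 13 with the block and 3 in DESeq2, against 0, and 0 in each fit without a library. Transcript share shifts numbered 17 with limma, 3 with curated transcripts and 2 with the block, against 9, and 5 to 15 without a library. Of 158 named genes 142 were called; 45 lost the call in at least 1 fit without a library and none reversed. The block ended none of these 142 calls and added 3 among the other named genes, and changed no other call among them. The causes were not tested.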
